A study of Homo sapiens with 10 samples.

Results

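The 10 genes described here are the transcription factor HSF1 and 9 chaperones or co-chaperones: HSPA1A, HSPA1B, HSPA8, HSPH1, HSP90AA1, HSPB1, DNAJB1, BAG3 and HSPA5. They are 10 of the 58037 genes in the deposited tables, matched by symbol, and were chosen from their values in A549/DDP and A549 in these same libraries. Their levels and differences between the lines are therefore given as a description, without a test. HSPA1A and HSPA1B are nearly identical, so reads could be assigned to either of them, and their sum is given beside them.

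The study examined the m6A reader protein YTHDF1 in hypoxia adaptation and lung cancer, including which m6A-modified transcripts it binds. It also compared m6A and expression levels between the lines described here. It reported a significant difference in m6A and none in expression. A549 is a human lung adenocarcinoma line, and A549/DDP is its cisplatin-resistant derivative, obtained as a gift. Both lines were kept for at most 10 passages. No treatment at harvest is stated for either line, and both were grown in RPMI medium with serum. For each line, 2 input libraries of RNA that was not pulled down and 2 m6A-seq libraries, pulled down with an antibody against N6-methyladenosine, were used. The libraries were strand-specific and paired-end. The labels do not say that replicates came from separate cultures, so p-values measure only the spread between these samples. In RNA from whole cultures, fewer cells of a type and less RNA per cell cannot be told apart.

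Heat shock proteins bind unfolded or partly folded polypeptides and keep them from aggregating. In unstressed cells HSF1 is held inactive by chaperones, and after heat or other protein damage it forms trimers and binds heat shock elements, inverted repeats of the unit GAA, in the promoters of chaperone genes. HSP70 proteins work in a cycle with J-domain proteins, which load substrates, and nucleotide exchange factors, which release them. HSP90 takes over many clients from HSP70, small heat shock proteins hold unfolded proteins without ATP, and the endoplasmic reticulum has chaperones of its own under the unfolded protein response.

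The A549 inputs held 35286514 and 34570074 expected counts on genes (replicates 1 and 2), and the A549/DDP inputs held 29225501 and 33971561. The second pair of A549 inputs, whose labels name no experiment, stood apart. It held 855034 and 982036 counts, of which 75.2% and 73.9% were mitochondrial, against at most 0.0547% in the other 4 inputs. It was kept out of the comparison and is described separately. Replicates of a line differed by more than counting noise: the chi-square over its degrees of freedom was 83.1 for the A549 inputs and 53.5 for those of A549/DDP. The m6A-seq libraries were deposited as peak lists without counts, so their depth is unknown.

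Markers of epithelial cells were present in both lines. The summed TPM (a scale of expression corrected for transcript length and library total) of 5 epithelial markers was 3684 and 7921 in A549 and 14741 and 14736 in A549/DDP, and KRT8 was the most abundant of them in each library. The sum was carried by KRT8 and KRT18, which with CDH1 were higher in both A549/DDP libraries, whereas KRT19 was lower (33.3 and 64.0 TPM in A549, 9.24 and 0 in A549/DDP) and EPCAM overlapped. The part of epithelial content in the differences described below was not tested. Of the 5 alveolar type II markers, SFTPC and SFTPA1 were at 0 in all inputs, SFTPB reached at most 0.45 TPM, NKX2-1 at most 0.10 TPM and NAPSA at most 3.94 TPM. The summed TPM of 4 leukocyte markers was at most 4.86, that of 3 endothelial markers at most 0.40, and that of 4 fibroblast markers between 2.94 and 19.2 in the first A549 pair and A549/DDP, mostly from COL1A1.

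HSF1, the main factor of the heat shock response, had 187 and 191 TPM in A549 replicates 1 and 2, and 158 and 195 TPM in A549/DDP. By TPM the A549 values lay between the A549/DDP values, so the lines overlapped. The log2 fold change of A549/DDP over A549, fitted by edgeR on the counts, was 0.01 with a standard error of 0.18. Its sign turned to between -0.10 and -0.01 with limma on TPM or FPKM and without a filter on low counts, to -0.08 without A549 replicate 2 and to -0.01 without A549/DDP replicate 1. HSF1 is regulated largely at the protein level, by trimer formation and phosphorylation, which these libraries do not measure.

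Because HSF1 acts through promoter elements, the bases upstream of the members' start sites were searched. RefSeq promoter windows (GRCh38.p14) were found for 9 of the 10 members, with 12 windows in all since HSP90AA1 and DNAJB1 have several start sites, and none for HSF1. In each window the 250 bases before the start were searched on both strands for the heat shock pairs GAANNTTC and TTCNNGAA, which can overlap, and for a run of 3 such alternating units. Of 35116 RefSeq promoters, 5.78% held the first pair, 6.62% the second and 0.441% the run of 3 units. The endoplasmic reticulum stress response element, CCAAT and CCACG with 9 bases between them, was held by 0.0740%. The 7 member windows with a match are printed over the 200 bases before the start, 5' to 3' on the gene's strand, since they hold elements of the kinds that HSF1 and the unfolded protein response are known to act through. Capitals mark the heat shock pairs and runs, and in HSPA5 the stress response element. A match is a description of letters and not evidence of binding.
HSPA1A, chr6:31815343-31815542, plus strand: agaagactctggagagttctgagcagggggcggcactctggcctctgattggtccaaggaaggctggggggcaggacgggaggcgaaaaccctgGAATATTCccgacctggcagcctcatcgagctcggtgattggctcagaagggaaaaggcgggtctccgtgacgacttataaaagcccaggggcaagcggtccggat
HSPA1B, chr6:31827538-31827737, plus strand: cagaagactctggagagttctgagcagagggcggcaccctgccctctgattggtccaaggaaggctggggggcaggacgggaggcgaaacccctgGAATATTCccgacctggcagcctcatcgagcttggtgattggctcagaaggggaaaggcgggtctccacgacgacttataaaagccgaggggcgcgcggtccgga
HSPA8, chr11:123062137-123062336, minus strand: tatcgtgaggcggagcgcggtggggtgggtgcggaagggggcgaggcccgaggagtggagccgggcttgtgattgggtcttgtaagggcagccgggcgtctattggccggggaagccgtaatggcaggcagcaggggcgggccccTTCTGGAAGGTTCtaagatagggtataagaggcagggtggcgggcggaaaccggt
HSP90AA1, chr14:102087045-102087244, minus strand: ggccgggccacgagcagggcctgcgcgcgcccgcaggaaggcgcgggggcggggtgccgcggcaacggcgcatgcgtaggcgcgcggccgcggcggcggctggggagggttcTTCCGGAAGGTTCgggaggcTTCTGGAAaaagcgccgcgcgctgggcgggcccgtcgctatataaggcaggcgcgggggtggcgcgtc
HSPB1, chr7:76302473-76302672, plus strand: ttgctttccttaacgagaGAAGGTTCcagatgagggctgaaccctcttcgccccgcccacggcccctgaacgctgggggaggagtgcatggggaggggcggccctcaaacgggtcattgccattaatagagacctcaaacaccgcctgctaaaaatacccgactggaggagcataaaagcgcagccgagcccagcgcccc
DNAJB1, chr19:14518398-14518597, minus strand: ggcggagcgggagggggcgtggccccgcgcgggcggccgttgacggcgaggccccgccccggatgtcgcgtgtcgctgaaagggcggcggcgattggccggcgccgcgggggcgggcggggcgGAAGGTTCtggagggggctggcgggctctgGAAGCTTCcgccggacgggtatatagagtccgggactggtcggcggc
HSPA5, chr9:125241344-125241543, minus strand: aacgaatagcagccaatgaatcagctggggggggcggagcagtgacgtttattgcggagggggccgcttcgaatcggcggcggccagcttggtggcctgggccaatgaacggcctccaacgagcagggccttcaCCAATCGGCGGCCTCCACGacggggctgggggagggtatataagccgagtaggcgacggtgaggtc

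The pair GAANNTTC began at position -106 from the start of HSPA1A and at -105 in HSPA1B. Over their 250 upstream bases these 2 genes were identical at 235 of 251 aligned positions, 93.6%. Both also had the letters TATAAA, at -30 and -29, which 10.7% of all promoters held. HSPA8 had 3-unit runs at -230, outside the printed bases, and at -55. HSP90AA1 had a 3-unit run at -88 and a further TTCNNGAA pair at -68, upstream of the start site printed here and not of its other one. DNAJB1 had GAANNTTC at -77 and -47 at 1 of its 3 start sites, and HSPB1 had it at -182. The windows of HSPH1 and BAG3 held neither pair, which says only that these letters are not in these bases. HSPA5 had no heat shock pair and carried the stress response element at -66.

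HSPA1A and HSPA1B encode the stress-inducible cytosolic HSP70. HSPA1A had 18.6 and 19.1 TPM in A549 replicates 1 and 2, and 499 and 388 TPM in A549/DDP. HSPA1B had 5.99 and 12.1 TPM in A549, and 169 and 164 TPM in A549/DDP. Together they had 24.6 and 31.2 TPM in A549 and 668 and 552 TPM in A549/DDP. In each of the 3 measures both A549/DDP libraries were far above both A549 libraries, and the groups did not overlap. The log2 fold change was 4.54 (standard error 0.23) for HSPA1A, 4.23 (0.32) for HSPA1B and 4.43 (0.20) for the sum, a fold of 21.6. HSPA1A took 72.1% and 57.0% of the summed counts in A549 and 71.1% and 65.9% in A549/DDP. How the counting divided shared reads could move this split, and the sum does not depend on it.

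HSPA8, the HSP70 that cells make without stress, had 79.6 and 140.4 TPM in A549 and 2211 and 2109 TPM in A549/DDP. It ranked 2481st and 1387th of all genes by TPM in the A549 libraries, and 43rd and 49th in the A549/DDP libraries. The A549 libraries differed from each other, yet both lay far below A549/DDP, and the log2 fold change was 4.46 (0.31). The A549 values of this usually abundant gene were below those of HSPA9, the mitochondrial HSP70, at 1686 and 1390 TPM, and of HSPA5 in the same libraries.

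The make-up of HSP70 transcripts thus differed between the lines. Over 11 HSP70 genes the summed TPM was 2449 and 2152 in A549 and 4384 and 4003 in A549/DDP. HSPA8 held 3.25% and 6.52% of this sum in A549 and 50.4% and 52.7% in A549/DDP. HSPA1A and HSPA1B together held 1.00% and 1.45%, and 15.2% and 13.8%. The share of HSPA9 was 68.8% and 64.6% in A549 and 21.0% and 21.1% in A549/DDP, and that of HSPA5 was 23.9% and 22.4%, and 10.8% and 10.2%. In A549 most HSP70 transcripts by TPM therefore encoded the mitochondrial and endoplasmic reticulum forms, and in A549/DDP most encoded the cytosolic forms.

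**Figure D1:**
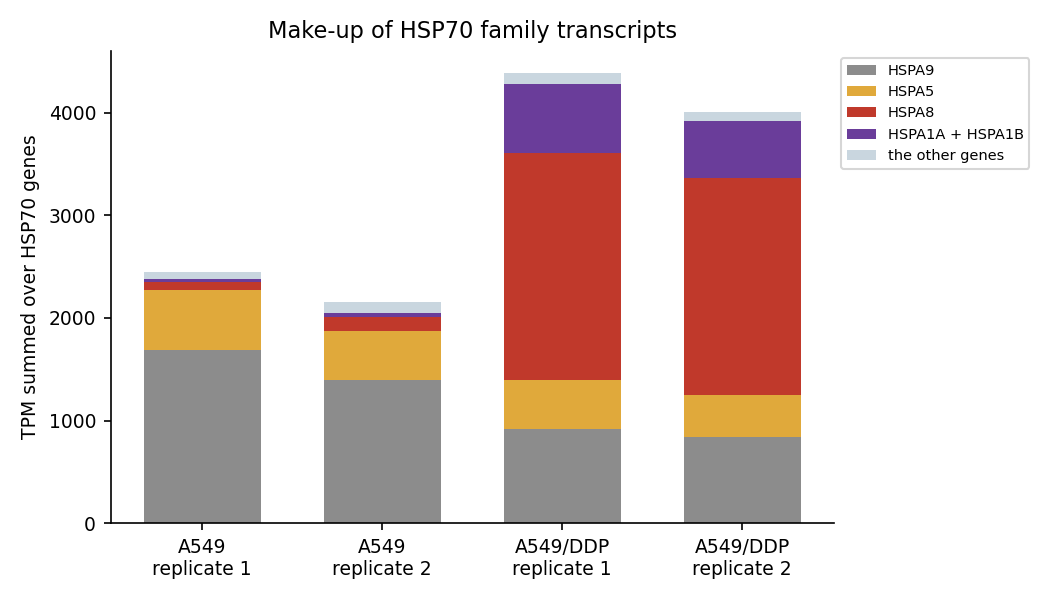
Stacked bars show the TPM of HSP70 genes summed in each input library, by gene, with the bars starting at 0. HSPA8 takes 3.25% and 6.52% of the bar in the A549 libraries and 50.4% and 52.7% in the A549/DDP libraries.

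HSP90AA1, the inducible cytosolic HSP90, had 352 and 741 TPM in A549 replicates 1 and 2 and 1627 and 1933 TPM in A549/DDP. HSPB1, the small heat shock protein HSP27, had 113 and 254 TPM in A549 and 588 and 661 TPM in A549/DDP. For both genes A549 replicate 1 was well below replicate 2, and both A549/DDP libraries were above either. The same order of the A549 replicates was seen for HSPA8 and HSPA1B. The log2 fold changes were 1.98 (0.29) for HSP90AA1 and 1.82 (0.29) for HSPB1. Leaving out 1 library at a time moved them to between 1.59 and 2.46 for HSP90AA1 and between 1.44 and 2.28 for HSPB1.

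DNAJB1, the J-domain protein HSP40 that delivers substrates to HSP70, had 113 and 102 TPM in A549 and 138 and 170.2 TPM in A549/DDP. BAG3, a nucleotide exchange factor that links HSP70 to autophagy, had 44.0 and 47.7 TPM in A549 and 83.7 and 73.4 TPM in A549/DDP. HSPH1, the HSP110 exchange factor of HSP70, had 107 and 91.3 TPM in A549 and 99.4 and 103 TPM in A549/DDP. By TPM the lines did not overlap for DNAJB1 and BAG3, which were higher in A549/DDP, and they overlapped for HSPH1, while by CPM after TMM scaling HSPH1 did not overlap either. The log2 fold change was 0.30 (0.17) for DNAJB1, 0.89 (0.18) for BAG3 and 0.24 (0.16) for HSPH1. Without A549 replicate 2 the values were 0.18, 0.81 and 0.16, with limma on FPKM 0.57, 0.82 and 0.09, and against the second A549 pair 1.14, 2.12 and 1.38, in the same order.

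HSPA5, the HSP70 of the endoplasmic reticulum known as BiP, had 585 and 483 TPM in A549 and 474 and 410.1 TPM in A549/DDP. By TPM its A549/DDP values lay below both A549 values, though the nearest values, 483 and 474, were close, and by CPM after TMM scaling the lines overlapped (1537 and 1107 in A549, 1166 and 999 in A549/DDP). Its log2 fold change was -0.29 (0.20). It was -0.05 without A549 replicate 1, -0.52 without A549 replicate 2, -0.42 and -0.19 without A549/DDP replicates 1 and 2, and it turned to 0.00 with the second pair of A549 inputs. By TPM it and HSP90AA1 were the 2 most abundant members in each A549 library, and HSPA8 and HSP90AA1 were in each A549/DDP library.

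**Figure D2:**
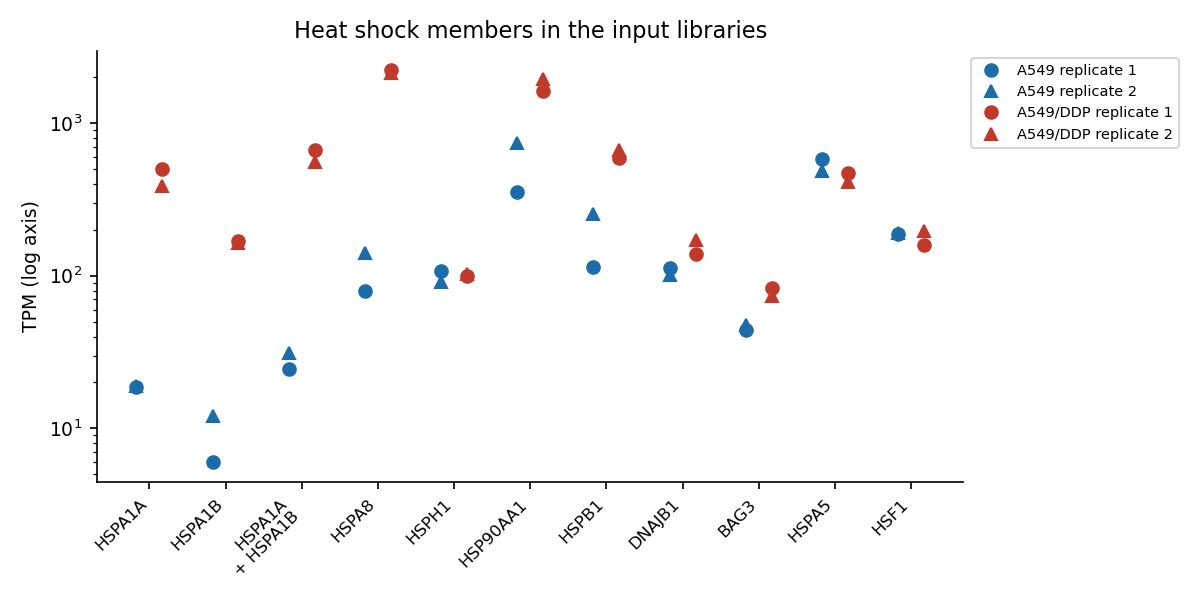
Points show the TPM of each member, and of HSPA1A and HSPA1B summed, in the 2 A549 and 2 A549/DDP input libraries on a log axis, with circles for replicate 1 and triangles for replicate 2. HSPA1A, HSPA1B and HSPA8 show the widest gaps between the lines, and HSPH1 and HSF1 overlap.

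Summed over the 10 members, TPM was 1605 and 2081 in A549 and 6047 and 6206 in A549/DDP. All 10 passed the filter on low counts. By TPM, the lines did not overlap for 7 members that were higher in A549/DDP and for 1 that was lower, HSPA5, as was the case for 28.2% and 30.3% of the 16406 genes. In the genome-wide fit, 6 members were called higher and 0 lower at an adjusted p under 0.05, where 6.85% of 16406 genes were called higher and 8.0% lower. Since the members were chosen on this contrast, nothing is read from these counts.

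**Figure D3:**
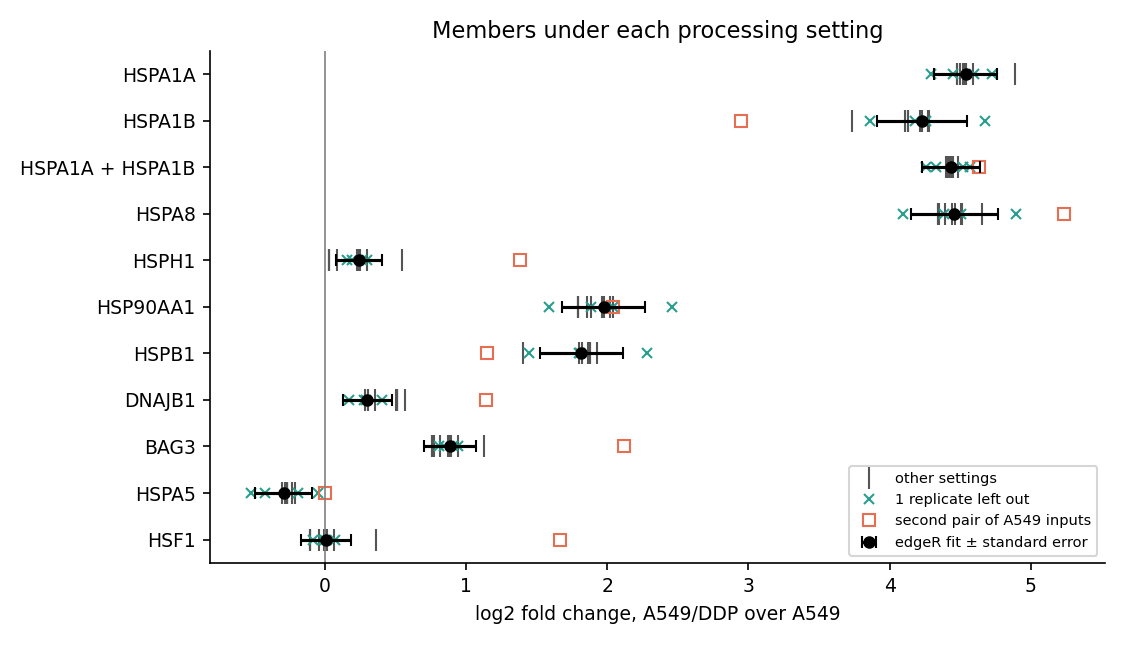
Filled circles show the log2 fold change of each member, A549/DDP over A549, with bars of 1 standard error, and the other marks show the same value under each processing setting. The value of HSPA1A with the second pair of A549 inputs, where it had 0 counts, is not drawn. The marks of HSF1 run from -0.10 to 1.67, and HSPA5 lies below 0 except with the second pair, at 0.0028.

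The second pair of A549 inputs gives a further, shallow look at the parental line. Since most of its counts are mitochondrial, CPM (counts scaled to the library's total), taken outside mitochondrial genes, are used for it, with exact Clopper-Pearson 95% intervals that cover counting error only. The HSPA1A and HSPA1B sum had 6 and 2 counts, or 28.3 (10.4 to 61.7) and 7.81 (0.946 to 28.2) CPM, against 33.4 and 41.9 in the first A549 pair and 929 and 762 in A549/DDP. HSPA1A alone had 0 counts in both, with intervals that reach up to 17.4 and 14.4 CPM. HSPA8 had 7 and 9 counts, or 33.1 (13.3 to 68.1) and 35.1 (16.1 to 66.7) CPM, against 77.8 and 149 in the first pair and 2649 and 2480 in A549/DDP. On this scale both genes were thus as low in this pair as in the first, or lower, and far below A549/DDP. HSF1 had 3 and 4 counts, or 14.2 (2.92 to 41.4) and 15.6 (4.26 to 40.0) CPM, against 90.6 and 89.4 in the first pair. With this pair in place of the first, the log2 fold change of the HSPA1 sum was 4.63, that of HSPA8 5.23 and that of HSF1 1.67. That of HSPA1B was 2.95 and that of HSPB1 1.15, both lower than the 4.23 and 1.82 against the first pair. With this pair the median of all genes itself was 0.80.

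The m6A peak lists held 26320 and 14576 peaks for A549 replicates 1 and 2, and 27244 and 10661 for A549/DDP. Replicate numbers follow the labels, which for A549 are exchanged relative to the deposited files. At least 1 peak was listed for 7 and 5 of the 10 members in A549 and for 5 and 6 in A549/DDP. Among the 16406 expressed genes, the shares with a peak were 43.7% and 30.6% in A549 and 40.7% and 22.2% in A549/DDP. HSPA1B, HSPB1, DNAJB1, BAG3 and HSF1, 5 of 10, had a peak in all 4 lists, as did 13.9% of expressed genes. HSPH1, HSP90AA1 and HSPA5 had a peak in none of the 4. When only peaks with a deposited p-value at or below 1e-05 were kept, HSF1 alone, 1 of 10, had a peak in all 4 lists, as did 1.55% of expressed genes. More abundant transcripts can yield more peaks, and the part of abundance in these counts was not tested.

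Overlapping peaks of the 4 lists were merged into regions, so a region can be wider than the peak of any 1 list. HSPA8 had 2 peaks in A549 replicate 1, the smaller p-value being 0.0049, and none in the other 3 lists. HSPA1A had peaks in A549 replicate 1 and A549/DDP replicate 2. Its region of 71 to 319 bases after the start, chr6:31815613-31815861, was in both of these lists, and the region of 1808 to 2255 bases was in A549 replicate 1. In HSPA1B the matching region of 47 to 294 bases was in 3 lists, and the region of 1826 to 2320 bases, chr6:31829563-31830057, was in all 4. Within that merged region both A549 peaks spanned 1826 to 2222 bases, the peak of A549/DDP replicate 1 spanned 2123 to 2320 and that of A549/DDP replicate 2 spanned 2222 to 2320, so this last one shared 1 base with the A549 peaks. As the 2 genes share sequence, a peak listed for 1 of them may hold reads of the other.

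HSPB1 had 2 regions, each in all 4 lists, near its start (-79 to 515 bases from it) and near its end (961 to 1623 bases). DNAJB1 had 4 regions, 3 of them in all 4 lists. BAG3 had 3 regions, and the merged one in all 4 lists ended 399 bases before the gene's end, though in A549/DDP replicate 2 its peak ended 699 bases before it. HSF1 had 6 regions, and the merged one in all 4 lists lay in the last stretch of the gene, 21948 to 23119 bases from the start. Positions are along the genome with introns included, and the lists give neither fold nor depth, so peaks were compared by presence and not by height.

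**Figure D4:**
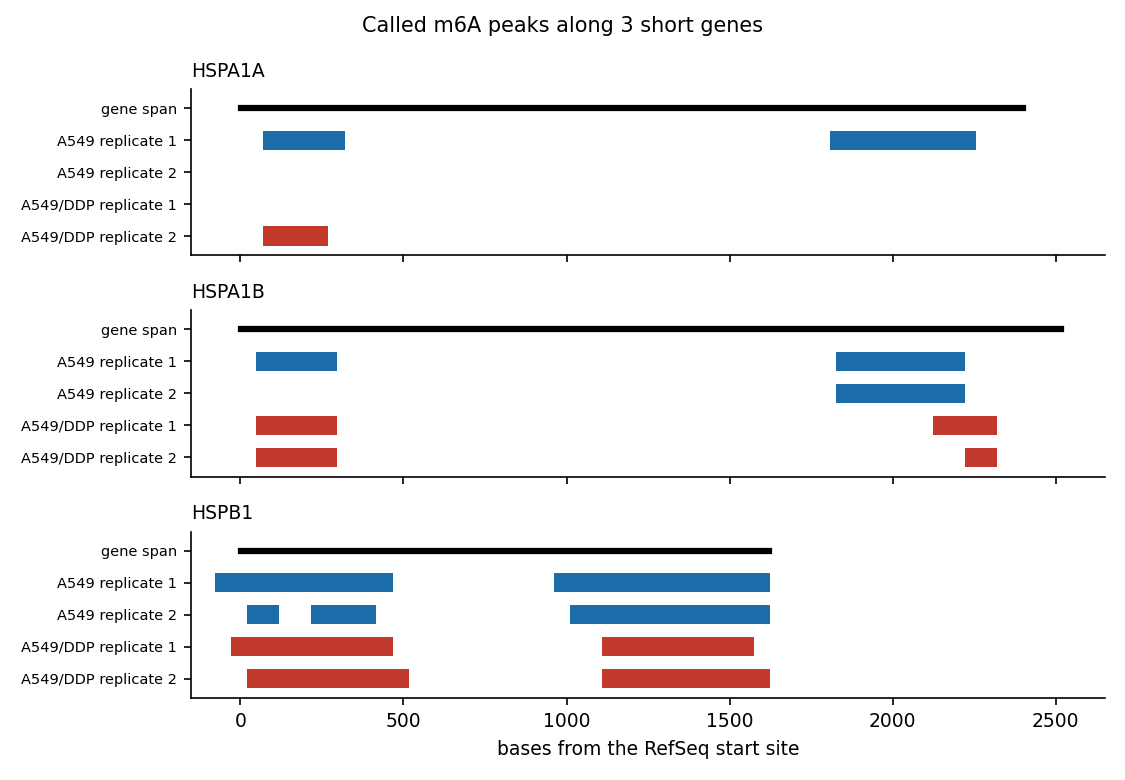
Bars show the extent of called m6A peaks in the 4 lists along HSPA1A, HSPA1B and HSPB1, with the distance in bases from the RefSeq start site on the horizontal axis and the gene's span as a black line. HSPB1 has peaks at both ends in all 4 lists, and HSPA1A in A549 replicate 1.

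The lists of the wider network were chosen with earlier results of these data known, as the members were. Their counts and p-values, here and below, are therefore a description and not independent support. The 7 lists held 90 other genes, of which 82 passed the filter. Of these 17 rose and 4 fell in A549/DDP at an adjusted p under 0.05 (edgeR quasi-likelihood test, Benjamini-Hochberg), 20.7% and 4.88%, beside 6.85% and 8.0% of all genes tested. Their median log2 fold change was 0.30, beside -0.00 for all genes. Against the second A549 pair the order of the medians turned, with 0.26 for these genes and 0.80 for all genes. In that fit 23 of 80 were higher and 14 lower, beside 2371 and 1387 of all 13815 genes. The median of these genes was 0.28 without A549/DDP replicate 1 and 0.25 without A549/DDP replicate 2. The counts of genes called moved with single libraries. Without A549/DDP replicate 1, 8 were higher and the median of all genes was -0.20. Without A549/DDP replicate 2, 11 were higher and 2 lower, with a median of all genes of -0.11. Without A549 replicate 2, 15 were lower. The count of genes lower was 10 with DESeq2, 11 without a filter on low counts and 14 against the second A549 pair. Over all genes the counts lower in these fits were 2265, 2174 and 1387. Against both A549 pairs 2 were higher and 2 lower, beside 335 and 342 of all 16517 genes. With the replicate block the counts were 22 and 8, beside 1633 and 1903 of all 16406 genes. Limma on TPM without a filter called 0 and 0, with 21 and 12 at an unadjusted p under 0.05. That fit also called 0 and 0 of all 22802 genes. A peak in all 4 m6A lists was found for 19 of the 82 genes, 23.2%, beside 13.9% of all expressed genes. By list, the shares were 45.1% and 39.0% in A549, beside 43.7% and 30.6% of all expressed genes. In A549/DDP they were 57.3% and 35.4%, beside 40.7% and 22.2%. The part of abundance in these shares was not tested.

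The other HSP90 proteins and co-chaperones had 5 genes higher and 1 lower of 12, with a median of 0.02. Against the second A549 pair the counts were 6 and 4, against both pairs 2 and 0, with 5 and 1 at an unadjusted p under 0.05. DESeq2 called 5 and 1, and limma with a filter called 3 and 0 on FPKM and on TPM. Without a filter limma on TPM called 0 and 0, with 4 and 1 at an unadjusted p under 0.05. AHSA1, which stimulates the ATPase of HSP90, had 51.3 and 61.2 CPM in A549 and 263 and 258 CPM in A549/DDP (after TMM scaling), and it rose by 2.21 on the log2 scale (adjusted p = 0.00295, edgeR quasi-likelihood test, Benjamini-Hochberg). FKBP4, an immunophilin of HSP90 complexes, had 82.5 and 124 CPM in A549 and 467 and 423 CPM in A549/DDP and rose by 2.10 (adjusted p = 0.00562, edgeR quasi-likelihood test, Benjamini-Hochberg). For both genes each A549/DDP library was above both A549 libraries, and both passed without each library in turn. HSP90AB1, the constitutive cytosolic HSP90, rose by 0.91 from a mean of 1516 CPM to 2842 CPM (adjusted p = 0.0113, edgeR quasi-likelihood test, Benjamini-Hochberg; adjusted p = 0.0729 without A549/DDP replicate 1). CHORDC1, an HSP90 co-chaperone, fell by 0.94 from 96.4 to 50.4 CPM (adjusted p = 0.0445, edgeR quasi-likelihood test, Benjamini-Hochberg). This call was lost without A549 replicate 1, without A549/DDP replicate 1 and without A549/DDP replicate 2 (the adjusted p of the edgeR quasi-likelihood test, Benjamini-Hochberg, was 0.056, 0.0827 and 0.179, in that order). Without A549/DDP replicate 1 this list had 2 genes higher, and without A549/DDP replicate 2 it had 3. Without A549 replicate 2 it had 2 lower. Of the 14 other settings, AHSA1 and FKBP4 each passed in 13, HSP90AB1 in 11 and CHORDC1 in 6, its call being lost in each limma fit and with the 2 A549 pairs pooled as well. With the pairs pooled its log2 fold change was still further below 0 than against the first pair, and against the second pair alone, where it passed, it was -2.48. On that second pair FKBP4 was at 2.93 and HSP90AB1 at 1.48.

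Of 16 J-domain proteins and other HSP70 co-chaperones, 2 rose and 1 fell, with a median of 0.08. DESeq2 called 5 higher and 1 lower, and edgeR called 4 higher and 2 lower without a filter or with the replicate block. Against both A549 pairs edgeR called 0 and 0, with 5 and 3 at an unadjusted p under 0.05. Against the second pair alone it called 4 and 3. On the first pair limma called 2 and 1 on FPKM. On TPM without a filter limma called 0 and 0, with 4 and 2 at an unadjusted p under 0.05. DNAJA1, a J-domain partner of HSPA8, had 104 and 107 CPM in A549 and 405 and 344 CPM in A549/DDP and rose by 1.83 (adjusted p = 0.0036, edgeR quasi-likelihood test, Benjamini-Hochberg). BAG1, a nucleotide exchange factor of HSP70, rose by 1.46 from a mean of 104 to 287 CPM (adjusted p = 0.00907, edgeR quasi-likelihood test, Benjamini-Hochberg). DNAJC7, which binds both HSP70 and HSP90, fell by 1.31 from 291 to 118 CPM (adjusted p = 0.0201, edgeR quasi-likelihood test, Benjamini-Hochberg; 0.0568 without A549/DDP replicate 2, where the list thus lost its fall). Without A549 replicate 2 or A549/DDP replicate 1 the list had 2 lower. DNAJA1 and BAG1 each passed in 12 of the 14 other settings and DNAJC7 in 11. Against the second A549 pair the log2 fold changes were 0.82 for DNAJA1, 2.78 for BAG1 and -0.85 for DNAJC7.

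Of the 7 tested genes among the other HSP70 and HSP110 proteins, 0 rose and 0 fell at an adjusted p under 0.05 (edgeR), with a median of 0.34. At an unadjusted p under 0.05, 0 were higher and 3 lower, while DESeq2 called 0 higher and 2 lower, edgeR without a filter 0 and 3, edgeR with the replicate block or the second A549 pair 0 and 1, and limma called 0 and 0 on FPKM and 0 and 1 on TPM with a pseudocount of 1. Without A549 replicate 2 edgeR called 1 higher and 3 lower, and without A549 replicate 1 or A549/DDP replicate 1 it called 1 lower. HSPA6, a strictly heat-inducible HSP70, had 0 and 26 counts in A549 and 4.04 and 0 in A549/DDP and was too low to be tested. Of the other small heat shock proteins 3 of 8 were tested and 0 passed in edgeR, with a median of -0.56. At an unadjusted p under 0.05 there was 1 in each direction. DESeq2 called 1 in each direction, as did edgeR without a filter or with the replicate block. Against the second A549 pair edgeR called 0 higher and 1 lower, and limma on FPKM, on the first pair, called 1 higher. Leaving out A549 replicate 1 or A549/DDP replicate 2 gave 1 higher in edgeR, and leaving out A549 replicate 2 gave 1 higher and 1 lower.

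Among 14 chaperonins and mitochondrial chaperones 2 rose and 0 fell in edgeR, with a median of 0.08 and with 4 higher and 1 lower at an unadjusted p under 0.05. DESeq2 called 3 higher and 1 lower, and limma on FPKM called 2 and 1. In edgeR 6 were higher and 1 lower without A549 replicate 1, 3 higher and 2 lower without A549 replicate 2, and 1 higher without A549/DDP replicate 2. Against the second A549 pair edgeR called 5 higher and 2 lower, and against both pairs 0 and 0, with 1 and 0 at an unadjusted p under 0.05. Limma on TPM without a filter called 0 and 0, with 2 and 2 at an unadjusted p under 0.05. CCT3, a subunit of the cytosolic chaperonin, rose by 1.15 from a mean of 302 to 671 CPM (adjusted p = 0.00753, edgeR quasi-likelihood test, Benjamini-Hochberg). HSPE1, the mitochondrial HSP10, rose by 0.99 from 96.8 to 192 CPM (adjusted p = 0.0209, edgeR quasi-likelihood test, Benjamini-Hochberg), but not without A549/DDP replicate 2 (0.125), and its sign turned with the 2 A549 pairs pooled. Against the second A549 pair alone it was called lower, at -2.34 (adjusted p = 7.65e-07, edgeR quasi-likelihood test, Benjamini-Hochberg). CCT3 passed in 12 of the 14 other settings, with 2.28 against the second A549 pair. HSPD1, the HSP60 partner of HSPE1, had a log2 fold change of 0.30 that did not pass (adjusted p = 0.238, edgeR quasi-likelihood test, Benjamini-Hochberg), though it passed without A549 replicate 1 (0.00114).

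Of 8 tested heat shock factors and regulators 1 rose and 1 fell, with a median of -0.52, and 2 fell without A549 replicate 2 and with DESeq2. SIRT1, a deacetylase of HSF1, had 118 and 91.9 CPM in A549 and 30.1 and 20.7 CPM in A549/DDP and fell by 2.05 (adjusted p = 0.00868, edgeR quasi-likelihood test, Benjamini-Hochberg). It passed in 12 of the 14 other settings, and against the second A549 pair it did not, at -1.31 (adjusted p = 0.0698, edgeR quasi-likelihood test, Benjamini-Hochberg). HSBP1, which binds HSF1 trimers, rose by 1.03 from a mean of 34.7 to 71.1 CPM (adjusted p = 0.0258, edgeR quasi-likelihood test, Benjamini-Hochberg), the list's only rise. The call was lost without A549/DDP replicate 1 (adjusted p = 0.110, edgeR quasi-likelihood test, Benjamini-Hochberg) or replicate 2 (0.0633), and in each limma fit, and the sign turned with the 2 A549 pairs pooled. With the second A549 pair alone HSBP1 was called lower, at -1.26 (adjusted p = 0.0072, edgeR quasi-likelihood test, Benjamini-Hochberg). HSF2, a relative of HSF1, had a log2 fold change of -1.06 that did not pass (adjusted p = 0.211, edgeR quasi-likelihood test, Benjamini-Hochberg).

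The endoplasmic reticulum list had 7 of 22 genes higher and 1 lower, with a median of 0.54. CRELD2, a secreted stress-response protein, had 6.69 and 17.3 CPM in A549 and 56.7 and 44.7 CPM in A549/DDP and rose by 2.08 (adjusted p = 0.0393, edgeR quasi-likelihood test, Benjamini-Hochberg; 0.0515 without A549/DDP replicate 1). Without A549 replicate 1 its log2 fold change was 1.54 and without A549 replicate 2 it was 2.91. P4HB, a protein disulfide isomerase, rose by 1.44 from a mean of 600.0 to 1631 CPM (adjusted p = 0.00486, edgeR quasi-likelihood test, Benjamini-Hochberg). ERN1, the stress sensor IRE1, fell by 1.76 from 122 to 36.2 CPM (adjusted p = 0.0098, edgeR quasi-likelihood test, Benjamini-Hochberg). This call, the list's only fall, was lost in each limma fit. CRELD2 and ERN1 passed in 10 of the 14 other settings and P4HB in 12, with 2.70 for P4HB against the second A549 pair. HSP90B1, the HSP90 of this compartment, had a log2 fold change of 0.42 that did not pass (adjusted p = 0.177, edgeR quasi-likelihood test, Benjamini-Hochberg; 6.85e-07 without A549 replicate 1). Its sign turned with the 2 A549 pairs pooled, and against the second pair alone it was called lower, at -0.76 (adjusted p = 0.00181, edgeR quasi-likelihood test, Benjamini-Hochberg). Without A549/DDP replicate 1 this list had 2 genes higher, and without A549/DDP replicate 2 it had 4. Without A549 replicate 2 it had 3 lower. Against both A549 pairs edgeR called 0 higher and 1 lower, with 6 and 1 at an unadjusted p under 0.05, where DESeq2 on the first pair called 9 and 2. Limma on TPM with a pseudocount of 0.1 called 3 and 0. Limma on TPM without a filter called 0 and 0, with 8 and 2 at an unadjusted p under 0.05.

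**Figure D5:**
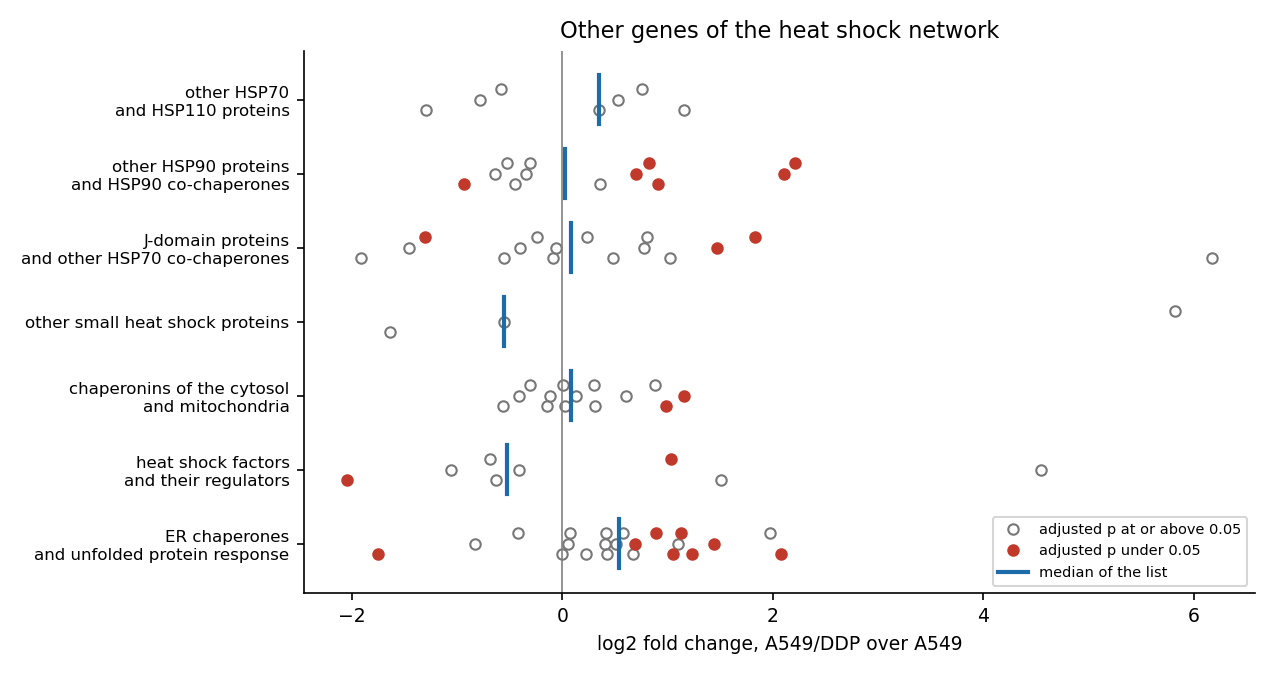
Circles show the log2 fold change, A549/DDP over A549, of each tested gene in the 7 lists, filled where the adjusted p was under 0.05, and vertical bars mark each list's median. The medians run from -0.56 to 0.54.

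Members aside, the genes whose profile over the 4 input libraries was nearest to that of the HSPA1A and HSPA1B sum were VTN, SALL1, HOXA5, C2orf72 and RAB20, by Euclidean distance between centred log2 CPM values over 11338 genes. Their distances were 0.26, 0.28, 0.29, 0.38 and 0.44, beside 0.27 for HSPA1A and 0.46 for HSPA8. VTN encodes vitronectin, a secreted adhesion protein, and had 6.50 and 6.21 CPM in A549 and 135 and 109 CPM in A549/DDP. Log2 fold changes of the 5 genes lay between 4.26 (VTN) and 4.79 (SALL1). With 2 libraries in each line, any gene with a like fold change has a like profile, so nearness here is a matter of size.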

How the data were processed

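Inputs of A549 (2), A549/DDP (2) and the second A549 pair (2) and m6A-seq peak lists (2 per line) were grouped by the sample labels. The authors deposited an expected count, a TPM and an FPKM per gene, in the layout of RSEM; the submitters' processing notes name STAR, RSEM, bedtools and hg38 without versions. Deposited peak lists give exon blocks, gene, strand and a p-value per peak, with no word on adjustment; the peak caller is not given in the sources used here. Of 58037 genes, 56993 were matched to a symbol. The members and lists were chosen with earlier results of these data known.

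Expected counts were rounded, passed through filterByExpr and TMM-scaled. They were put to the two-sided test of edgeR 4.0.16 (glmQLFit and glmQLFTest, R 4.3.3), p-values being adjusted by Benjamini-Hochberg over 16406 genes. The steps were tested on simulated counts with much less spread between replicates than in these data. That test does not show how they behave at the spread found here. A standard error is the absolute log2 fold change over the root of F, which is approximate. The sum replaced HSPA1A and HSPA1B in a fit of its own. The common biological coefficient of variation was 0.656. Alternatives were DESeq2 1.42.0, no filter, upper-quartile scaling, limma 3.58.1 on log2 FPKM or TPM (pseudocount 1 or 0.1, mean of at least 1, or no filter), the second pair or both pairs of A549 inputs, the replicate number as a block and leaving out each replicate. Peaks were matched by gene name, with a p-value limit of 1e-05 and overlap as alternatives; leaving out each m6A-seq list was added after the data were seen. The genes named are the members, from each list the 3 largest changes that passed, averaged 5 CPM or more and went in 1 direction in both same-numbered pairs, 7 relatives or partners of members, and the 5 nearest profiles. HSPB11 is listed as IFT25.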

Additional observations from a re-analysis of the deposited data

How the results depend on the processing

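The HSPA1A and HSPA1B sum stayed between 4.40 and 4.63 on the log2 scale over the settings that kept all replicates, with 4.63 for the second pair of A549 inputs, and between 4.25 and 4.57 when each replicate was left out. In those leave-one-out fits the lone sample of a line is assumed to vary like the others.

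Of the network genes, 17 were higher and 4 lower. The count higher was 11 with limma on TPM with a pseudocount of 0.1, 2 with both A549 pairs, and 8 to 25 with 1 replicate left out. The count lower was 10 with DESeq2, 11 without a filter, 14 with the second pair, 2 with both pairs, and 2 to 15 with 1 replicate left out. Limma on TPM without a filter called 0 higher and 0 lower, with 21 and 12 at an unadjusted p under 0.05. With a replicate block in the fit, 22 were higher and 8 lower; deviations of same-numbered libraries had a correlation of 0.0259, so the pairing rests on the number alone. Counts over all genes moved between settings as well, with 1124 higher and 1313 lower against the first pair and 335 and 342 against both pairs. The cause of these shifts was not tested.

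HSPA5 turned to 0.0028 with the second pair. HSF1 turned to -0.0062 without a filter, -0.0399 with limma on FPKM and -0.10 with limma on TPM at either pseudocount or without a filter. With 1 replicate left out it ran from -0.0824 to 0.0749. It was 0.36 against both A549 pairs and 1.67 against the second pair. The cause was not tested. Members with a peak in all 4 lists numbered 5, and 1 at a p-value limit of 1e-05. The second pair, with 211799 and 256064 counts outside mitochondrial genes, limits what it can show for genes with few counts.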
